A study of Mus musculus with 6 samples.

Results

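Steap4 and 9 other genes that bring iron into cells, store it or let it out were followed in retinas of mice lacking Wfs1. The 10 genes were chosen by name, not by a measured value: the STEAP reductases Steap1, Steap2, Steap3 and Steap4, transferrin (Trf) and its receptor (Tfrc), the ferritin chains Fth1 and Ftl1, the iron exporter ferroportin (Slc40a1) and ceruloplasmin (Cp). They are 10 of the 55376 genes in the count table, and all 10 passed the filter on low counts that left 18547 genes for testing. RNA-seq was done at postnatal day 240 on whole retinas, 3 from WT mice and 3 from Wfs1-KO mice, each from a different animal. Both genotypes are given as C57x129 in the sample labels and as C57BL/6 J in the study's methods, and no group received a treatment. The mutant mice carry a deletion of exon 8 of Wfs1 in every cell of the body, so the retina was not the only tissue affected. In bulk tissue, fewer cells of a type and less RNA per cell cannot be told apart.

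Iron enters many cells as transferrin taken up by the transferrin receptor, is reduced from its ferric to its ferrous form by STEAP proteins, is stored inside ferritin, a shell of heavy and light chains, and leaves through ferroportin with the help of ferroxidases such as ceruloplasmin. Ferritin, ferroportin and transferrin receptor transcripts carry iron responsive elements, stem-loops that are bound by the iron regulatory proteins when iron is scarce. Binding near the start of a transcript blocks its translation, and binding in the tail of the transferrin receptor transcript protects it from decay, so that low iron leaves ferritin mRNA largely as it is and raises transferrin receptor mRNA. In the retina iron is needed by photoreceptors for renewal of their membranes, and its excess is known to damage them and the pigment epithelium.

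Wfs1 itself had 64.9, 61.4 and 69.9 CPM in WT replicates 1, 2 and 3 and 9.63, 0.900 and 11.5 CPM in the mutant retinas, so every mutant retina lay below every WT retina. CPM are read counts relative to the total of their library, after TMM scaling between libraries. The library columns name the genotypes only by the letters C and W, which were read as control and Wfs1 mutant, and the Wfs1 values follow that reading. Total counts ranged from 17916885 to 101334381. The library of Wfs1-KO replicate 2 stood apart, with a mean correlation of 0.918 to the others against 0.962 to 0.971 for the rest, and it lay above or below all 5 other retinas for 75.3% of the tested genes. Among the 10 iron genes this was so for 8, a share near that of all genes. WT replicate 3, the shallowest library, had 4 counts of Xist, while the other 5 had at least 10583. Because the library of Wfs1-KO replicate 2 stood apart, differences between the genotypes are given for all 6 retinas and without it. WT replicate 3 stayed in each of these fits.

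The 4 STEAP genes lie on chromosome 5 (Steap2, Steap1 and Steap4) and chromosome 1 (Steap3). Steap4 was the only one of the 10 iron genes whose level in every Wfs1-KO retina exceeded that in every WT retina. Steap4 encodes a plasma membrane and endosomal reductase of ferric iron and cupric copper that is known to be induced by inflammatory cytokines. It had 2.09, 1.98 and 2.27 CPM in WT replicates 1, 2 and 3, and 7.88, 19.0 and 3.95 CPM in Wfs1-KO replicates 1, 2 and 3. The WT retinas lay close together, and the lowest mutant retina was 1.74 times the highest WT retina. Behind these levels stood 139, 94 and 40 counts in WT and 812, 802 and 174 counts in mutant retinas. Over all tested genes, 5.01% had all 3 mutant retinas above all 3 WT retinas, and 3.94% had all 3 below.

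**Figure D1:**
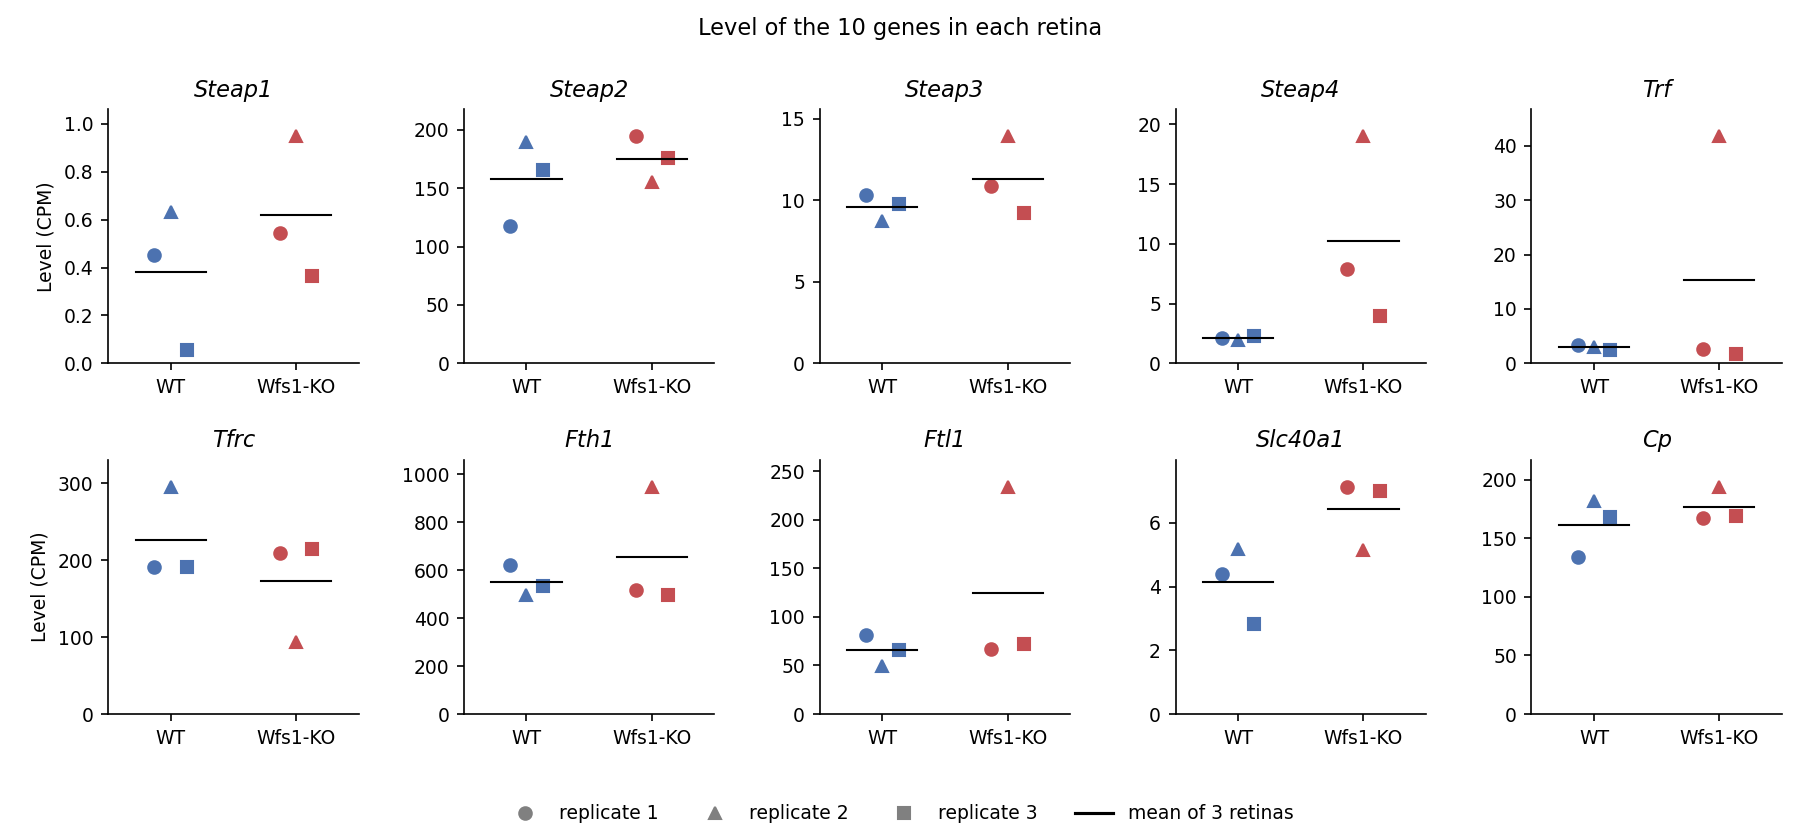
Level of each iron gene in CPM (vertical axes, linear and starting at 0, a separate scale for each gene) in WT (blue) and Wfs1-KO (red) retinas; each point is 1 retina, its shape is the replicate number and the black line is the mean of 3. In the Steap4 panel the 3 mutant retinas, at 7.88, 19.0 and 3.95 CPM, sit above all WT retinas, whereas in the Trf and Ftl1 panels the mutant mean is set by the triangle of replicate 2, at 41.7 and 234 CPM.

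The means were 2.11 ± 0.148 CPM for WT and 10.3 ± 7.80 CPM for mutant retinas (SD, n = 3 each). Steap4 differed by 2.28 on the log2 scale (standard error, SE, 0.55), a 4.87-fold higher level in the mutants, with an unadjusted p of 0.00393 and an adjusted p of 0.979 (edgeR's quasi-likelihood test, Benjamini-Hochberg over all tested genes). An adjusted p under 0.05 was the threshold, and 0.0108% of all tested genes passed it in this fit. None of the iron genes did, and neither did the deleted gene Wfs1 (unadjusted p = 0.00428 and adjusted p = 0.979 in edgeR's test). A gene's failure to pass in this fit is therefore not evidence that its level was unchanged. At an unadjusted p under 0.05 stood 1 of the 10 iron genes, Steap4, and 2.81% of all tested genes. Without Wfs1-KO replicate 2 the log2 fold change of Steap4 was 1.50 (SE 0.30, adjusted p = 0.169 in the same edgeR test), a 2.82-fold higher level. That fit placed 0.125% of all tested genes past the threshold and 5.19% at an unadjusted p under 0.05. Wfs1 was past the threshold there (adjusted p = 2.84e-05 in edgeR's test).

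The call for Steap4 depended on the tool. With DESeq2, which the study used, Steap4 passed the threshold on all 6 retinas with a log2 fold change of 2.27 and an adjusted p of 0.00925, and it was the only iron gene among the 0.246% of tested genes that did. It also passed in DESeq2 on the 5 retinas without Wfs1-KO replicate 2, at 1.50 on the log2 scale and an adjusted p of 0.00219, where 0.475% of tested genes passed. Wfs1 too passed in DESeq2 on all 6 retinas (adjusted p = 0.00092). The study's RNA-seq results came from these same libraries, so the direction of Steap4 here is not independent evidence. The study also ran quantitative PCR on independent samples for selected genes. Its text does not name Steap4, and its primer list holds Steap2 but not Steap4.

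Steap4 occupies bases 7960457 to 7982213 of chromosome 5 (mm10, plus strand). Its promoter window from RefSeq (build GRCm38.p6, 250 bases before to 50 after the transcription start) is printed because Steap4 was the 1 iron gene with separated groups. Capitals mark a match to TTCCNGGAA, the palindrome bound by STAT transcription factors, which reads the same on both strands and was searched for after its sequence had been looked at.

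Steap4 promoter, chr5:7960222-7960521, plus strand: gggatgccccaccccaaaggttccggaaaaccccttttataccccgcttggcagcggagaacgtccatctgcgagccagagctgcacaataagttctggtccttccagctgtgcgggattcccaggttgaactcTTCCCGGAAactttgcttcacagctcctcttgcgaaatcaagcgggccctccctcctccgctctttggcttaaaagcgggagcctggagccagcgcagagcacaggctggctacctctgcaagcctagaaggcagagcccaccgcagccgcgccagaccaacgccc

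The match lay at 7960356 to 7960364, from 116 to 108 bases before the start. This motif occurred in 1.15% of all 32851 promoter windows, a share of windows and not of genes, since a gene can have several. It was searched for after the Steap4 window had been seen, so the match in Steap4 was not a test. Of the 10 iron genes 8 had a window, and Steap4 alone of these held a match. Trf and Slc40a1 had none in the table. Gfap, the intermediate filament of reactive glia, also held a match, as 1 of 12 reactive glia markers with a window. The Gfap match spans the transcription start, beginning 2 bases before it, whereas the Steap4 match lies wholly before its start. The stretch around the Gfap match is shown beside that of Steap4, with the 9 matching bases in capitals.

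Steap4, chromosome 5: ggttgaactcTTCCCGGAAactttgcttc
Gfap, chromosome 11: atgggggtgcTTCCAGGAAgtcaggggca

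A match is a run of letters, not a measured binding site, and no binding was measured in these samples.

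For the other STEAP genes the retinas of both genotypes overlapped. Steap2, which encodes a reductase of iron and copper in the secretory pathway, had 118, 189.7 and 166 CPM in WT and 194, 155 and 176 CPM in mutant retinas. Steap3, the ferrireductase of the endosomes that carry transferrin in red cell precursors, had 10.3, 8.74 and 9.76 CPM in WT and 10.9, 13.9 and 9.22 CPM in mutant retinas. Steap1, which lacks the reductase domain of its relatives, was near the lower limit of detection, with 30, 30 and 1 counts in WT and 56, 40 and 16 counts in mutant retinas. Log2 fold changes were 0.15 (SE 0.22) for Steap2, 0.24 (SE 0.22) for Steap3 and 0.60 (SE 0.72) for Steap1, all with an adjusted p of 0.979 in edgeR's test. Without Wfs1-KO replicate 2 they were 0.23 (SE 0.18) for Steap2, 0.06 (SE 0.18) for Steap3 and 0.14 (SE 0.67) for Steap1. None of these differences could be told from the spread between retinas.

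Scaled for exon length, Steap2 made up most of the STEAP transcripts in every retina. Levels per length are given as RPKM, the TMM-scaled CPM divided by the kilobases of exon in the count table. Steap2 held between 60.6% and 86.6% of the summed RPKM of the 4 genes. The share of Steap4 was 4.84%, 3.11% and 4.06% in WT and 11.0%, 25.6% and 6.48% in Wfs1-KO retinas. Every mutant retina thus had a larger Steap4 share than every WT retina, although Steap2 remained the most abundant of the family in all 6.

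**Figure D2:**
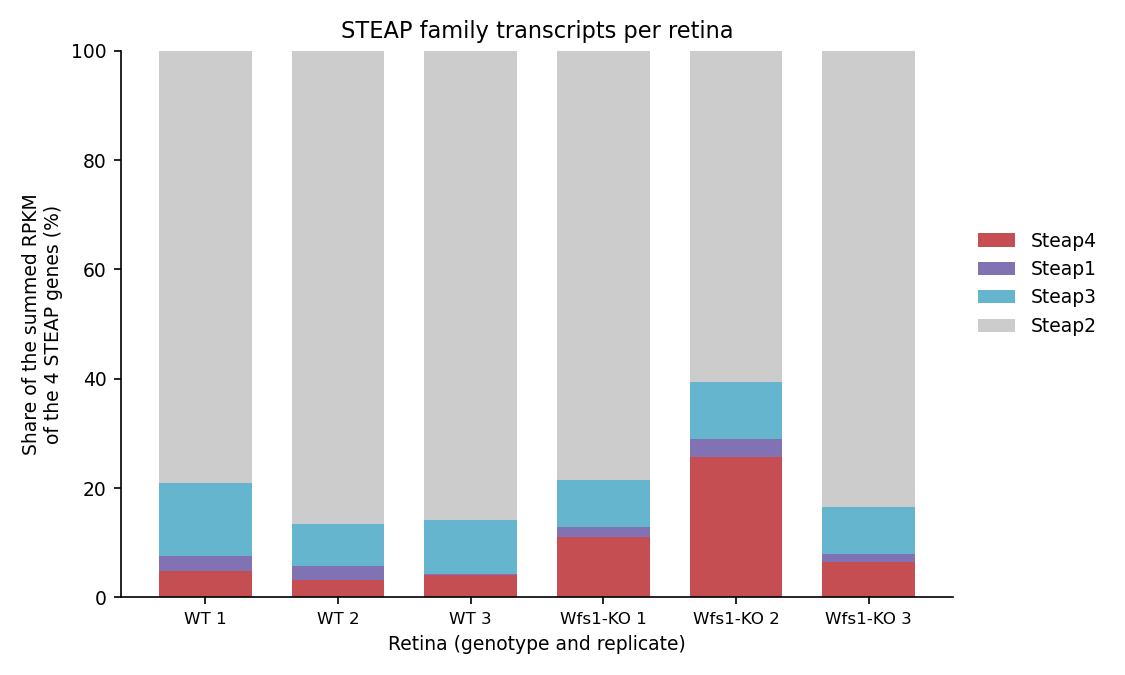
Share of each STEAP gene in the summed RPKM of the 4 genes (vertical axis, percent), 1 bar per retina. Steap2 (grey) fills between 60.6% and 86.6% of every bar, and the Steap4 segment (red) is 3.11% to 4.84% in WT and 6.48% to 25.6% in Wfs1-KO retinas.

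Iron uptake by transferrin gave differences that hung on 1 library. Trf encodes transferrin, the iron carrier of blood and eye fluids that oligodendrocytes and pigment epithelium also make. It had 3.34, 2.94 and 2.50 CPM in WT and 2.55, 41.7 and 1.68 CPM in Wfs1-KO retinas. Replicate 2 was 12.5 times the highest of the other 5 retinas, and mutant replicates 1 and 3 lay inside or below the WT range. The log2 fold change was 2.38 (SE 1.15, adjusted p = 0.979 in edgeR's test) on all 6 retinas and -0.47 (SE 0.28, adjusted p = 0.966) without Wfs1-KO replicate 2, so the direction turned. DESeq2 gave Trf no p on all 6 retinas, because its check for outlying counts set it aside.

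Tfrc, the receptor that takes transferrin into the cell, was low in the library in which Trf was high. It had 192, 295 and 192 CPM in WT and 209.7, 93.7 and 214 CPM in Wfs1-KO retinas. Mutant replicates 1 and 3 lay within the WT range and replicate 2 was the lowest of all. The log2 fold change was -0.39 (SE 0.35, adjusted p = 0.979 in edgeR's test), and -0.10 (SE 0.19, adjusted p = 0.981) without Wfs1-KO replicate 2.

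Ferritin heavy chain was the most abundant transcript of the iron genes in every retina, in CPM and per exon length. Fth1, the heavy chain with ferroxidase activity, had 623, 497 and 534 CPM in WT and 515, 945 and 497 CPM in Wfs1-KO retinas. Ftl1, the light chain that helps to form the mineral core, had 81.1, 49.6 and 65.9 CPM in WT and 67.5, 234 and 72.3 CPM in mutant retinas. For both chains replicate 2 was the highest retina, 1.52 times the next for Fth1 and 2.89 times the next for Ftl1, while mutant replicates 1 and 3 lay within the WT range. Their log2 fold changes were 0.24 (SE 0.28) for Fth1 and 0.93 (SE 0.50) for Ftl1, each with an adjusted p of 0.979 in edgeR's test. Without that library they were -0.13 (SE 0.14) and 0.09 (SE 0.19). The ferritin genes have 14 near copies in the table, of which 5 had no counts and the highest, Fthl17f, had 0.995 CPM.

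Iron export gave the only other iron gene at an unadjusted p under 0.05 in a fit without Wfs1-KO replicate 2. Slc40a1 encodes ferroportin, the exporter of iron from cells. It had 4.40, 5.19 and 2.84 CPM in WT and 7.12, 5.16 and 6.99 CPM in Wfs1-KO retinas. Mutant replicates 1 and 3 lay above all WT retinas, and replicate 2, unlike for most genes, lay inside the WT range. The means were 4.14 ± 1.20 CPM for WT and 6.43 ± 1.10 CPM for mutant retinas (SD, n = 3 each). The log2 fold change was 0.63 (SE 0.30, unadjusted p = 0.0712 and adjusted p = 0.979 in edgeR's test). Without Wfs1-KO replicate 2 it was 0.74 (SE 0.25, unadjusted p = 0.0133 and adjusted p = 0.726 in edgeR's test), and DESeq2 gave an adjusted p of 0.441 on the same 5 retinas. With WT replicate 3 left out instead, it was 0.41 (SE 0.30, unadjusted p = 0.216 in edgeR's test).

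Cp encodes ceruloplasmin, the copper ferroxidase that loads exported iron onto transferrin and that Müller glia make in the retina. Its levels were close between the genotypes, with 134, 182 and 169 CPM in WT and 167, 194 and 169 CPM in Wfs1-KO retinas. Its log2 fold change was 0.13 (SE 0.18) on all 6 retinas and 0.06 (SE 0.15) without Wfs1-KO replicate 2, with adjusted p of 0.979 and 0.985 in edgeR's test. Cp overlaps Hps3, which lies on the other strand with a mean of 30.7 CPM against 169 CPM for Cp, and the library kit did not mark strand.

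**Figure D3:**
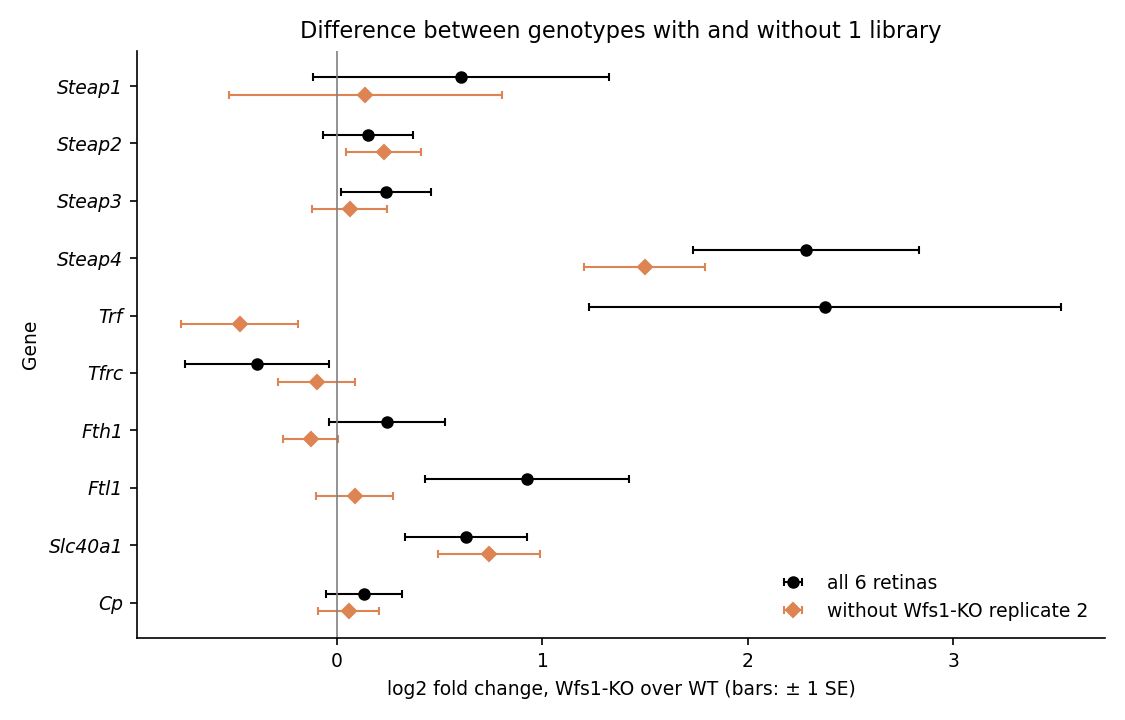
Log2 fold change of each iron gene, Wfs1-KO over WT (horizontal axis), with bars of 1 standard error, from edgeR on all 6 retinas (black circles) and without Wfs1-KO replicate 2 (orange diamonds). Steap4 lies at 2.28 and 1.50 and Slc40a1 at 0.63 and 0.74, while Trf crosses from 2.38 to -0.47.

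Across the 10 genes, 9 had a log2 fold change above 0 on all 6 retinas and 7 without Wfs1-KO replicate 2. Of the 18547 tested genes, 9791 were above 0 on all 6 retinas. Wfs1-KO replicate 2 was above all 5 other retinas for 7 of the 10 iron genes. The median of the 10 was 0.42 on all 6 retinas and 0.07 without that library, beside medians over all tested genes of 0.02 and -0.0004. The order of the levels in WT, per length, ran from Fth1 at 354 ± 41.5 RPKM over Ftl1 at 67.7 ± 16.2 and Tfrc at 43.5 ± 11.5 to Cp at 27.8 ± 4.24 and Steap2 at 14.5 ± 3.36 (SD, n = 3). Below these, Steap3 had 1.70 ± 0.141, Slc40a1 1.23 ± 0.355, Trf 1.06 ± 0.154, Steap4 0.670 ± 0.0470 and Steap1 0.309 ± 0.239 RPKM (SD, n = 3). In this order the WT retinas of Ftl1 and Tfrc overlapped, as did those of Slc40a1 and Trf, and all other neighbours were separate. In Wfs1-KO retinas Steap4 had 2.50, 6.02 and 1.25 RPKM and overlapped Steap3, which had 1.92, 2.47 and 1.63 RPKM.

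The transcripts of Fth1, Ftl1, Slc40a1 and Tfrc carried iron responsive elements, printed here because a search matched them in no other iron gene. A search of the protein-coding transcripts of GENCODE M21 (mm10) took a loop of CAGTGN, an unpaired C at the sixth base before it and 5 paired bases on either side, in an untranslated region and on the transcript's strand. It found a match in 0.731% of 21877 genes. Of the 10 iron genes 4 had a match. Each site is given 5′ to 3′ on the transcript's strand with the loop in capitals, and all lie within 1 exon.

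Fth1, chr19:9982732-9982761, plus strand: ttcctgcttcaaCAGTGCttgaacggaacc
Ftl1, chr7:45459778-45459807, minus strand: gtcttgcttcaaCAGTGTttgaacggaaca
Slc40a1, chr1:45925464-45925493, minus strand: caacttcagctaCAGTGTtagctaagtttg
Tfrc element 1, chr16:32631219-32631248, plus strand: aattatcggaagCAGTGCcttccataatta
Tfrc element 2, chr16:32631598-32631627, plus strand: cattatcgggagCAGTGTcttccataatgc
Tfrc element 3, chr16:32631663-32631692, plus strand: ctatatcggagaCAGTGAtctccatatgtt
Tfrc element 4, chr16:32631710-32631739, plus strand: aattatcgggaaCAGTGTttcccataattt

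The ferritin and ferroportin elements lie in the 5′ untranslated region, and the 4 elements of Tfrc in its 3′ untranslated region. No match was found in Steap1, Steap2, Steap3, Steap4, Trf or Cp. The search matched only 6 of 10 genes listed as bearing such elements, so a missing match does not exclude an element. Of these 10 listed genes, which include Fth1, Ftl1, Slc40a1 and Tfrc, none passed the threshold and none had an unadjusted p under 0.05 on all 6 retinas. Aco1, which encodes iron regulatory protein 1, had 49.0, 49.6 and 58.7 CPM in WT and 48.4, 32.0 and 53.1 CPM in mutant retinas.

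Ratios between these transcripts within a retina do not depend on library scaling. The ratio of Fth1 to Ftl1 counts per kb was 4.77, 6.22 and 5.03 in WT and 4.74, 2.51 and 4.27 in Wfs1-KO retinas. Every mutant retina lay below every WT retina, although mutant replicate 1 and WT replicate 1 were nearly equal. The mean log2 ratio was lower by 0.52 in Wfs1-KO retinas, written as a difference of -0.52 (two-sided exact permutation test over the 20 splits, p = 0.1, the smallest this design allows). The difference was -0.24 without Wfs1-KO replicate 2. The ratio of Tfrc to Fth1 was 0.0924, 0.178 and 0.108 in WT and 0.122, 0.0297 and 0.129 in mutant retinas. Its log2 difference was -0.64 (two-sided exact permutation test, p = 0.6), and 0.054 without Wfs1-KO replicate 2.

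**Figure D4:**
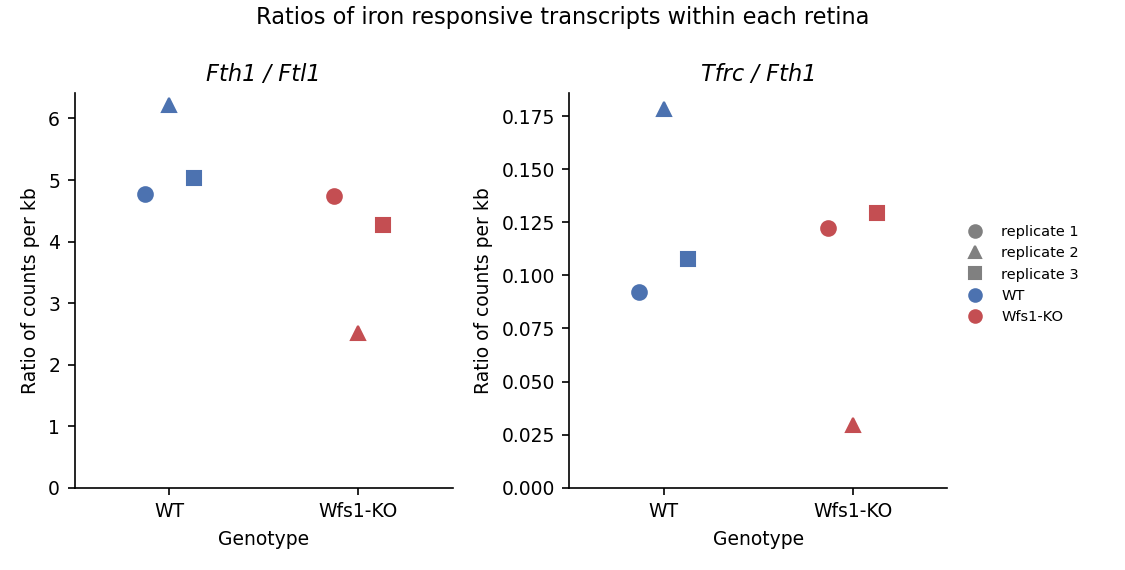
Ratio of counts per kb within each retina (vertical axes, linear from 0) for Fth1 over Ftl1 (left) and Tfrc over Fth1 (right), with WT in blue, Wfs1-KO in red and the replicate number as the shape. On the left the mutant retinas lie at 4.74, 2.51 and 4.27, all below the lowest WT retina at 4.77, and on the right replicate 2 alone of the mutant retinas lies below the WT range, at 0.0297.

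Around these 10 genes, 91 others of the iron pathway were listed, of which 80 were tested and none passed the threshold in edgeR. At an unadjusted p under 0.05 stood 2, both higher in Wfs1-KO retinas, a share near the 2.81% of all genes. Their median log2 fold change was 0.04, and -0.04 without Wfs1-KO replicate 2. By group, 11 genes of iron uptake and release, 19 regulators, 7 storage and chaperone genes, 20 genes of heme synthesis and turnover and 23 genes of mitochondrial iron and iron-sulfur clusters were tested, and their medians on all 6 retinas lay between 0.0007 and 0.06.

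The 2 genes were Lcn2 and Slc39a8. Lcn2 encodes lipocalin 2, which binds siderophores that carry iron and is known to be secreted by reactive glia. It had 1.82, 1.53 and 1.82 CPM in WT and 4.98, 77.4 and 4.27 CPM in Wfs1-KO retinas, so the groups did not overlap and replicate 2 was far above the rest. In edgeR its log2 fold change was 4.07 (SE 1.18) on all 6 retinas and 1.42 (SE 0.24) without Wfs1-KO replicate 2. Lcn2 was the 1 pathway gene past the threshold in DESeq2 without that library. Slc39a8, a zinc and iron importer that is induced in inflammation, had 1.02, 1.09 and 2.16 CPM in WT and 4.33, 6.04 and 1.98 CPM in mutant retinas, where replicate 3 lay within the WT range. The log2 fold change of Slc39a8 was 1.56 (SE 0.50), and 1.23 (SE 0.41) without Wfs1-KO replicate 2.

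Other genes of the pathway were nearer to level. Hmox1, which breaks down heme and releases its iron, had 3.75, 4.75 and 2.50 CPM in WT and 3.32, 5.83 and 3.22 CPM in Wfs1-KO retinas. Ncoa4, the receptor that carries ferritin to lysosomes, had 28.4, 38.6 and 39.9 CPM in WT and 39.7, 5.23 and 34.3 CPM in mutant retinas, with replicate 2 far below the rest. In the fit without Wfs1-KO replicate 2, 4 of the 80 pathway genes were at an unadjusted p under 0.05, a share near the 5.19% of all tested genes. They were Lcn2, Slc39a8, Hfe and Neo1, of which the last pair act upstream of hepcidin. Hfe had a log2 fold change of 0.36 (SE 0.19) on all 6 retinas and 0.48 (SE 0.14) without that library, and Neo1 of 0.24 (SE 0.25) and 0.45 (SE 0.15).

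The genes whose profile was most like that of Steap4 were sought by the root mean square difference between centred log2 CPM. Over the 6 retinas the nearest of all tested genes were Gm37607 (0.228), Upk1b (0.27), Mlph (0.285), Gm10791 (0.288) and Gfap (0.288). Over the 5 retinas without Wfs1-KO replicate 2 they were Kif23 (0.197), Gm37607 (0.217), 6530409C15Rik (0.233), Gm15834 (0.239) and C130073E24Rik (0.242). Gfap had 19.2, 13.1 and 11.2 CPM in WT and 47.5, 104 and 21.2 CPM in Wfs1-KO retinas, the same order of the mutant retinas as in Steap4. Many genes share such a profile where 1 library stands apart, and the likeness is a description over few samples.

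Of 15 reactive glia markers all had a log2 fold change above 0, as had 9791 of the 18547 tested genes. None passed the threshold in edgeR, 4 passed in DESeq2, and 12 were at an unadjusted p under 0.05 in edgeR, beside 2.81% of all tested genes. For 10 of the 15 every mutant retina lay above every WT retina, beside 5.01% of all tested genes. Without Wfs1-KO replicate 2, 8 were at an unadjusted p under 0.05 and 1 passed in edgeR, 6 passed in DESeq2, and the median log2 fold change went from 1.83 to 1.03. Their summed level was 324, 300.1 and 319 CPM in WT and 479.5, 1298 and 378 CPM in Wfs1-KO retinas. This is the order of the mutant retinas in Steap4. It is also their order in the summed blood, microglia and macrophage, pigment epithelium, lens, oligodendrocyte and pericyte markers. The endothelial, Müller glia, photoreceptor and ganglion cell sums had other orders. Serpina3n had 19.6, 19.7 and 22.4 CPM in WT and 50.3, 123 and 46.4 CPM in mutant retinas, and Timp1 and Edn2 were next by p. Of this list, the study reported Gfap, Lcn2, Edn2 and C4 (here C4b) as raised from these same libraries, and it called Vim dysregulated. It also reported Fgf2 as raised in a separate profiling of candidate genes. The counts for the list are therefore not independent evidence. The part of glial reactivity in the Steap4 difference was not tested.

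Summed blood, macrophage and pigment epithelium markers were highest in the library in which Trf, Fth1 and Ftl1 were highest. The summed blood markers were 12.3 to 41.2 CPM in the other 5 retinas and 479.9 CPM in Wfs1-KO replicate 2, and Hba-a1, an alpha globin, had 180.3 CPM there. Microglia and macrophage markers summed to 48.9 to 73.9 CPM in the others and 346 CPM there, with Cx3cr1 at 39.7 CPM. Pigment epithelium markers summed to 56.4 to 175 CPM in the others and 511 CPM there, while in mutant replicates 1 and 3 they were at 95.4 and 56.4 CPM, below the WT retinas. That sum rested on Ttr, Rgr and Dct, at 234, 105 and 92.8 CPM, whereas Rpe65 and Best1, at 20.8 and 1.14 CPM, lay inside the WT range. Lrat, a pigment epithelium enzyme of the visual cycle, had 4.59 CPM there, below every WT retina, and was the 1 marker of the 12 at an unadjusted p under 0.05 on all 6 retinas. Without Wfs1-KO replicate 2, 7 of the 12 were lower at an unadjusted p under 0.05, Lrat passed the threshold (log2 fold change -1.99, adjusted p = 0.0467 in edgeR's test), 4 passed in DESeq2, and the median log2 fold change of the list went from 0.47 to -0.78. The medians of the blood and of the microglia and macrophage lists went from 2.27 to -0.48 and from 1.16 to 0.05. The part of these cells in the Trf and ferritin levels was not tested.

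**Figure D5:**
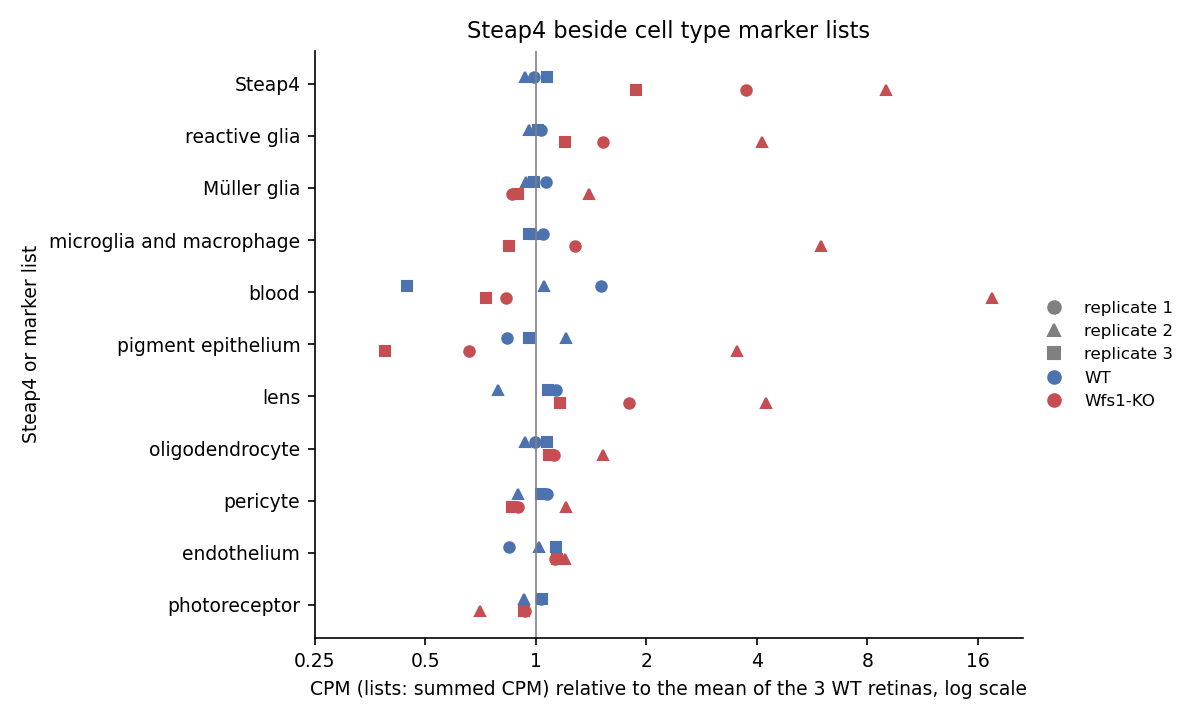
Level of Steap4 and summed level of 10 cell type marker lists in each retina relative to the mean of the 3 WT retinas (horizontal axis, log scale), with WT in blue, Wfs1-KO in red and the replicate number as the shape. The 3 mutant retinas lie above the WT retinas for Steap4 and for the reactive glia, lens and oligodendrocyte markers. The triangle of replicate 2 stands far to the right for Steap4 and for the reactive glia, blood, microglia and macrophage, pigment epithelium and lens markers.

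In the remaining lists the same library was again at one end. Lens markers summed to 1.66 to 3.77 CPM in the other 5 retinas and 8.93 CPM in Wfs1-KO replicate 2, and of them Bfsp2 was at an unadjusted p under 0.05. Müller glia markers, the glia that make Cp, summed to 5760.0 to 7132 CPM in the others and 9335 CPM there, although Glul, their glutamine synthetase, was lower in mutant retinas at an unadjusted p under 0.05. Oligodendrocyte markers reached 90.8 CPM there against 55.4 to 66.7 CPM elsewhere, pericyte markers 1307 against 934 to 1165 CPM, endothelial markers 364 against 257 to 348 CPM, and ganglion cell markers 1078 against 711 to 940.5 CPM. Photoreceptor markers, which define the tissue as retina, were at 48260 CPM there and between 63781 and 71521 CPM in the others.

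The place of the STEAP genes on chromosome 5 was also examined, since Wfs1 lies on the same chromosome 29.0 megabases from Steap4. In the stretch from 1 megabase before Steap2 to 1 megabase after Steap4, 20 genes were tested, and 3 were at an unadjusted p under 0.05, where 2.81% of all tested genes stood: Gm26825, Steap4 and Gm15610. Gm26825, the nearest tested gene after Steap1 and a long noncoding RNA, had 2, 3 and 0 counts in WT and 87, 38 and 35 counts in Wfs1-KO retinas (unadjusted p = 0.000221 and adjusted p = 0.316 in edgeR's test). Without Wfs1-KO replicate 2 the adjusted p was 0.06 in edgeR's test. Gm26825 passed the threshold in DESeq2 on all 6 retinas (adjusted p = 0.00069) and without that library (adjusted p = 0.00316). With limma's voom and quality weights it passed as well (adjusted p = 0.00736). Its mutant retinas had 0.844, 0.900 and 0.795 CPM. An antisense gene overlaps Gm26825, and without strand their reads cannot be told apart. The direct neighbours of Steap4 had overlapping groups: Zfp804b had a log2 fold change of -0.37 (SE 1.03) on all 6 retinas and 0.20 (SE 0.39) without Wfs1-KO replicate 2. Sri turned as well, from 0.16 (SE 0.24) to -0.14 (SE 0.14). So did Cfap69, the neighbour of Steap2, from -0.048 (SE 0.22) to 0.043 (SE 0.19).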

How the data were processed

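RNA-seq libraries of 6 whole retinas, 3 per genotype, were analysed. The authors deposited raw counts per gene. The labels name Trimmomatic 0.39, STAR 2.5.3a and featureCounts 1.6.4 with mm10, Trizol and an unstranded TruSeq kit, whereas the methods name a column kit and other versions. Of 8 library columns, 2 matched no listed sample and were not used. Genotypes were compared with edgeR 4.0.16 (R 4.3.3; TMM, filterByExpr, quasi-likelihood test, Benjamini-Hochberg adjustment over all tested genes, threshold 0.05). Standard errors were derived from the fold change and the F statistic. DESeq2 1.42.0 and limma 3.58.1 were alternatives. In counts simulated for the 6 libraries, 155 of 200 genes with a log2 change of 2 were recovered with 11 false calls among 18258 genes. The simulated counts had the same dispersion for all genes and no library that stood apart. The share recovered therefore does not carry over to these retinas. Ratios were compared by exact permutation tests.

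The genes, lists and tests were chosen with earlier results of these data known. Besides the 10 iron genes, genes were named by rule: up to 3 per list with the smallest unadjusted p under 0.05, the 5 nearest profiles to Steap4, and chromosomal neighbours. Hmox1, Ncoa4, Aco1, Hfe, Neo1, Gm15610, Ttr, Rgr, Dct, Rpe65, Best1 and the promoter motif were chosen after values or sequences were seen.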

Additional observations from a re-analysis of the deposited data

How the results depend on the processing

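The number of genes past the threshold was 2 in edgeR on all 6 retinas, 9 without the filter on low counts, 35 with limma's voom and quality weights, 49 with DESeq2 and 95 with DESeq2 without Wfs1-KO replicate 2, an alternative chosen after seeing the data. With 1 retina left out it lay between 0, without any 1 of the WT retinas, and 24, without Wfs1-KO replicate 2. Of the iron genes, 0 passed in edgeR, also with any 1 retina left out (0 to 0), and 1 in DESeq2 and 1 in DESeq2 without Wfs1-KO replicate 2, in both cases Steap4, at log2 fold changes of 2.27 and 1.50. Of the other pathway genes 1 passed, in DESeq2 without that retina. Over 14 alternatives the log2 fold change of Steap4 lay between 1.50 and 2.67 and never turned, with adjusted p between 0.00219 and 1.0. Slc40a1 lay between 0.41 and 0.84. With 1 retina left out Steap2 lay between -0.023 (without WT replicate 1) and 0.30, Trf between -0.47 and 2.90, Fth1 between -0.13 and 0.40 and the Tfrc to Fth1 difference between -1.01 and 0.054, where the turns of the last 3 came without Wfs1-KO replicate 2. Trf also turned to -0.29 with voom and -0.47 in DESeq2 without that retina, and Fth1 to -0.070 and -0.13 in the same settings. The cause of these turns was not tested. The Fth1 to Ftl1 difference lay between -0.70 and -0.24 with 1 retina left out, the latter without Wfs1-KO replicate 2.

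The replicate numbers did not pair the retinas: deviations of same-numbered retinas correlated at -0.23, -0.11 and 0.08. With a replicate block 1 gene passed the threshold, and Steap4 had a log2 fold change of 2.01 (adjusted p = 0.992 in edgeR).

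Steap1 rested on few counts, 1 of them in WT replicate 3, where 3 counts equal 0.170 CPM.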
